A study of Mus musculus with 20 samples.

Results

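The 10 cortex libraries from 10-month mice fell into 2 sets by the count of one transcript, Ttr, which encodes transthyretin, the carrier of thyroxine and retinol-binding protein made by the choroid plexus. The members were chosen by their raw Ttr count. A library was placed in the high-Ttr set at a raw Ttr count of 30000 or more and in the low-Ttr set below 10000. The high-Ttr set held 5 libraries (3 control, 2 KI) and the low-Ttr set held 5 (2 control, 3 KI), out of 20 libraries in the study. The lowest count inside the high-Ttr set was 32627 and the highest count in the low-Ttr set was 6832. Because Ttr chose the sets, the difference between them at 10 months is given here as a description. Its independent test is whether the same transcripts followed Ttr in the 10 libraries from 3-month mice, which played no part in the choice.

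Bulk RNA-seq was made from cortex of mice that all carried the 5xFAD transgenes (5xFAD+/-), human amyloid genes with familial Alzheimer's disease mutations driven by the neuronal Thy1 promoter. Abca7, a lipid transporter gene, was wild type in the control group (5xFAD+/-; Abca7WT/WT) and carried a knocked-in substitution in the KI group, written p.A693S in the labels and p.A696S in the series title. The labels do not say whether a KI library came from a heterozygous or a homozygous animal. There were 5 libraries for each genotype and age (3 or 10 months), and the study asked what the substitution does to amyloid and to brain immunity. The protocol names male littermates. Nothing in the labels ties a library to its own animal, so p-values here rest on the spread from library to library, which may be partly technical.

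The choroid plexus is a secretory epithelium on a core of vessels and stroma that hangs in the brain ventricles. Its cells are bound by tight junctions, carry tufts of cilia, and make cerebrospinal fluid by moving ions and water from blood to ventricle. It lies against the inner face of the cortical wall beside the hippocampus and striatum, so a dissected piece of cortex may or may not include some of it.

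Library totals ran from 42896149 to 57447015 counts, and the neuronal cortex marker Slc17a7, a vesicular glutamate transporter, lay between 996 and 1407 CPM (counts scaled to a common library total with the TMM factors of edgeR) in every 10-month library. A pair of low-Ttr libraries stood apart from their labels. KI replicate 5 had 54206 counts of Xist, the RNA that coats the inactive X, and its Y-linked Ddx3y stood at 1 count, while the other 10-month libraries had 2 to 19 and 2382 to 3497. Control replicate 9 lay between the genotypes in all 4 genes that separated them, as described with the genotype comparison. At 3 months, KI replicate 3 had the lowest total and the lowest Slc17a7, 869.7 CPM.

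Values at 10 months are given in one order throughout: for the high-Ttr set control replicates 6, 7 and 8 and then KI replicates 3 and 7, and for the low-Ttr set control replicates 9 and 10 and then KI replicates 4, 5 and 6. Ttr itself was 1796, 746, 1948, 896 and 1156 CPM in the high-Ttr set and 19.7, 123, 26.1, 18.6 and 13.9 CPM in the low-Ttr set. No library lay between 123 and 746 CPM, and control replicate 10 was the highest of the low-Ttr set. At 3 months Ttr was 37.1, 302, 1336, 885 and 771 CPM in control replicates 6 to 10, and 1379, 45.3, 2035, 50.7 and 954 CPM in KI replicates 3 to 7. The 3-month libraries therefore spanned much the same range, with one library, control replicate 7, in the gap seen at 10 months. Mean log2 CPM of Ttr was lower in KI than in control by 1.97 at 10 months (5 libraries each, p = 0.286 by a 2-sided exact permutation test, 0.571 adjusted over 4 comparisons) and by 0.15 at 3 months (p = 0.976 by the same exact test). Between 10 and 3 months it was -0.14 in control (exact permutation p = 0.944) and -1.96 in KI (exact permutation p = 0.222). The smallest p that 5 against 5 libraries allow is 0.00794. When 1 library was left out, the 10-month genotype difference ran from -3.02 to -1.28 and the KI age difference from -2.87 to -1.27, so both kept their sign. The 3-month genotype difference ran from -1.0 to 0.60 and the control age difference from -0.99 to 0.91, so both changed sign.

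Of 19727 genes tested at 10 months with genotype in the model, 53 were higher in the high-Ttr set at an adjusted p under 0.05 by edgeR's quasi-likelihood test (0.269% of genes tested), and 0 were lower (0% of genes tested, with 621 genes in either direction at an unadjusted p under 0.05). DESeq2 called 124, of which 122 were higher and 2 lower. Since Ttr chose the sets, these calls only delimit the genes described. The lowest high-Ttr library was above the highest low-Ttr library for 164 genes (0.831%), including all 52 called genes besides Ttr, and below it for 49 (0.248%). The 52 genes ran from 0.89 to 6.96 in log2 fold change, and their low-Ttr level was 15.2% of the high-Ttr level in the median gene. In bulk tissue, more choroid plexus cells in a piece and more RNA per such cell cannot be told apart. The number of calls rested in part on single libraries: it was 31 without control replicate 9, 35 without control replicate 10 and 32 without KI replicate 7, and 54 without KI replicate 5, the library with Xist.

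**Figure D1:**
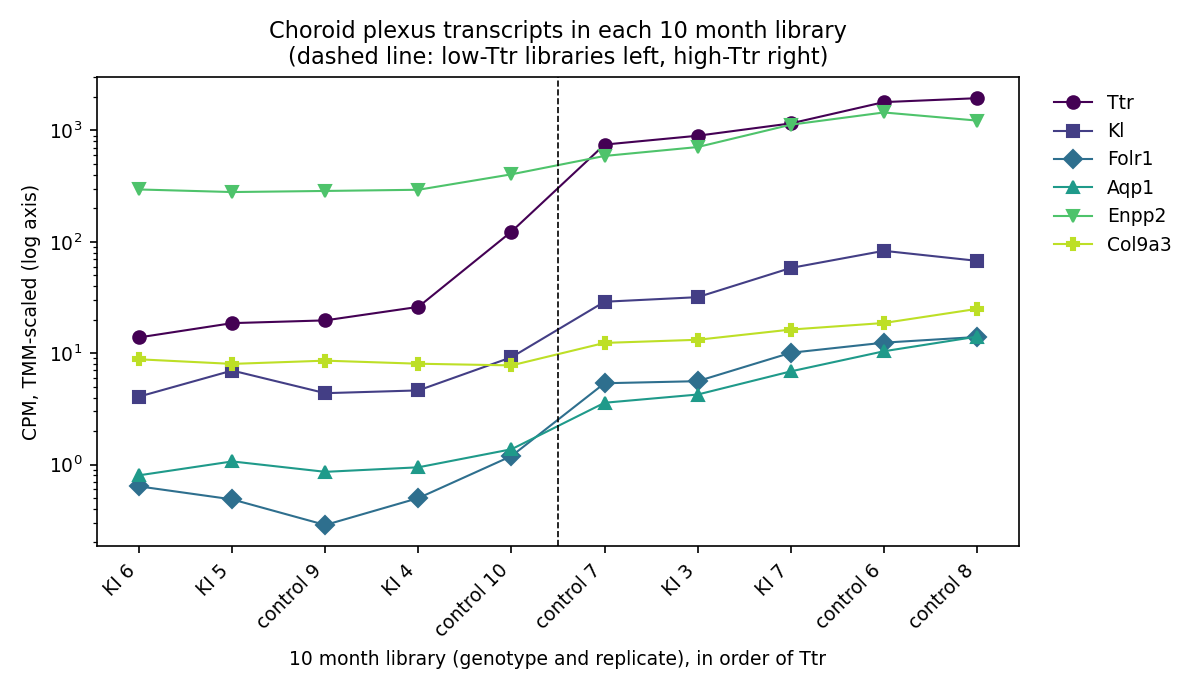
Level of 6 transcripts (CPM, log axis) in each of the 10 libraries from 10-month mice, ordered by Ttr, with a dashed line between the low-Ttr set (left) and the high-Ttr set (right). All 6 lines step up at the dashed line, Ttr from 123 to 746 CPM, and Enpp2 and Col9a3 step up less than Kl, Folr1 and Aqp1.

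The test in libraries not used for the choice gave the same genes in large part. At 3 months the slope on log2 Ttr, that is the log2 change of a gene per doubling of Ttr with genotype in the model, was above 0 for 55 of 19311 genes (0.285%) and below 0 for 0 genes at an adjusted p under 0.05 by edgeR (573 in either direction at an unadjusted p under 0.05; DESeq2 called 116 above 0 and 6 below). Of the 52 genes called at 10 months besides Ttr, 50 could be tested at 3 months. All 50 had a slope above 0, and 37 of them (74%) were called. Pon1, a paraoxonase, and Bhmt, betaine-homocysteine methyltransferase, were too low at 3 months to be tested. The 18 genes called at 3 months and not at 10 months were all higher in the high-Ttr set, among them Lbp, the lipopolysaccharide-binding protein, and Slc39a4, a zinc importer (both named after their values were seen). The slopes of the called genes ran from 0.14 to 1.23. The 3-month count was 84 without KI replicate 3, 33 without KI replicate 4 and 35 without KI replicate 6, the last 2 being among the 3 libraries lowest in Ttr at that age.

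**Figure D2:**
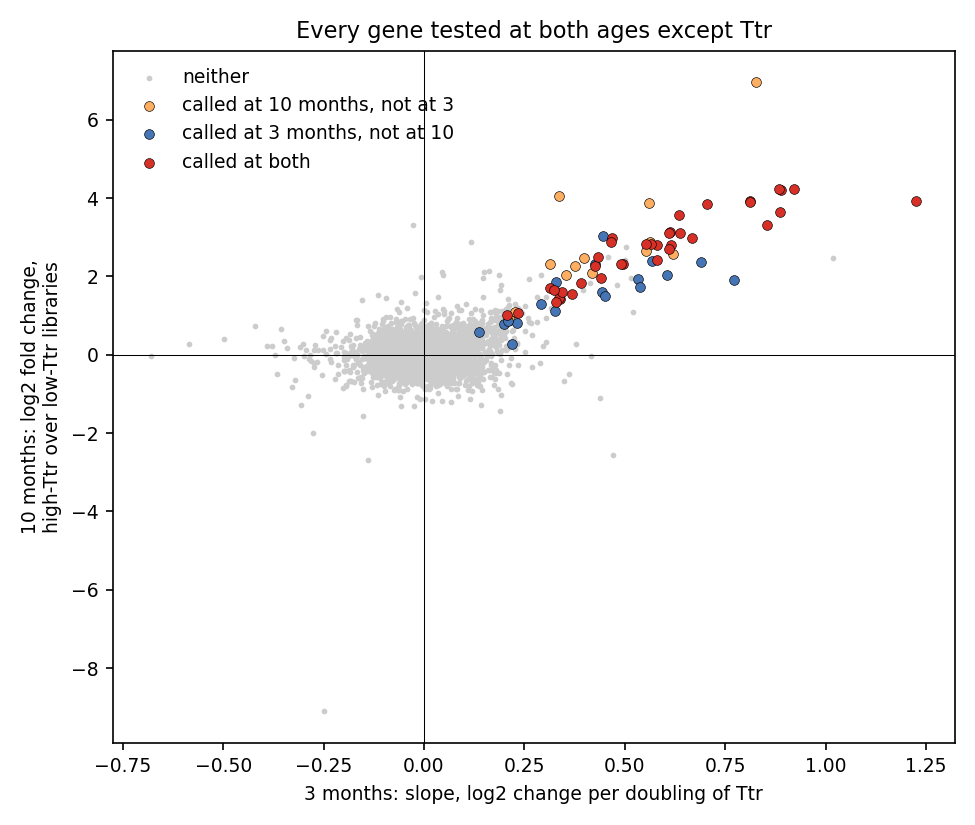
Each point is a gene tested at both ages except Ttr, with its 3-month slope (log2 change per doubling of Ttr) on the horizontal axis and its 10-month log2 fold change between the high-Ttr and low-Ttr sets on the vertical axis. The 37 genes called at both ages lie in the upper right, and no called gene lies below 0 on either axis.

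Promoter letters are shown for 4 of the 37 genes called at both ages, because these genes moved together and include Otx2, a homeobox factor of choroid plexus and retina. The sequences are RefSeq's for GRCm38.p6, 5′ to 3′ on the gene's strand. For Cldn2, a pore-forming claudin, and Kcnj13, an inward-rectifier potassium channel, the 250 bases before the start are printed, at chrX:139800558-139800807 and chr1:87394730-87394979. For Otx2 and Mfrp, a membrane frizzled-related protein, a stretch of 30 bases is printed, at chr14:48665303-48665332 and chr9:44101624-44101653, with capitals on GGATTA, the reverse complement of TAATCC, a core letter pattern of the OTX and CRX homeobox family.
Cldn2: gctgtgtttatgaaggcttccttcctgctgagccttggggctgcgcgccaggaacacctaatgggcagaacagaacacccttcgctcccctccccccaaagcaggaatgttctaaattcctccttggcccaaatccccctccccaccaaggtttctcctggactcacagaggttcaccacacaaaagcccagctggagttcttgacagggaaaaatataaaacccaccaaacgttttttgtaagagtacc
Kcnj13: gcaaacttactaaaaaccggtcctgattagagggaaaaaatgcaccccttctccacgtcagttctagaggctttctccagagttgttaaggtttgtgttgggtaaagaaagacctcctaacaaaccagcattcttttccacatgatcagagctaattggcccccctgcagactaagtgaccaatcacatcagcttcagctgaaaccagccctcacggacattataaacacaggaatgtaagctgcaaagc
Otx2: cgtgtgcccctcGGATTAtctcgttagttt
Mfrp: ctcagctgagttGGATTAaggaccattccg
TAATCC was searched on both strands in the 250 bases before each start. Of the 37 genes, 30 matched the promoter table by symbol, with 39 starts, and 2 of these starts (5.13%) held the letters, against 6.25% of all 32851 starts in the table. Otx2 has 4 starts in the table, and the letters stand before only 1 of them. The 250 bases before that start, and those before the Mfrp start, overlap annotated exons of the same gene. A match says only that the letters are there.

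The transcripts that follow Ttr are described by the roles of the choroid plexus they serve, in 5 lists of choroid plexus genes drawn up with earlier results of these data known. The lists named 68 genes besides Ttr, of which 67 were in the table and 66 were tested at 10 months. Of the 66, 64 had a log2 fold change above 0 and 29 were among the called genes, with a median of 1.10 beside 0.00027 over all genes tested. At 3 months 63 of 66 slopes were above 0 and 31 were called, with a median slope of 0.22 beside -0.0010 over all genes tested. The shares called over all genes tested were 0.269% at 10 months and 0.285% at 3 months. They also stand beside the counts per list below. The other 23 called genes at 10 months were in no list.

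Secreted proteins and carriers held 15 tested members, 14 with a 10-month value above 0 and 6 called, with 7 called at 3 months. Folr1, the folate receptor that carries folate into cerebrospinal fluid, was 12.4, 5.38, 14.0, 5.61 and 10.1 CPM in the high-Ttr set and 0.287, 1.19, 0.501, 0.487 and 0.638 CPM in the low-Ttr set. The sets did not overlap, and control replicate 10 was again the highest of the low-Ttr set. The log2 fold change was 3.84 ± 0.37 (SE), and the 3-month slope was 0.70 ± 0.07 (adjusted p = 5.83e-04, edgeR). Enpp2, autotaxin, an enzyme that makes lysophosphatidic acid, was 1450.0, 590.2, 1226, 709 and 1125 CPM against 286, 404, 293, 279.9 and 295 CPM. Enpp2 therefore kept a level in the low-Ttr set that was 26.1% of the high-Ttr median, where Ttr kept 1.71% and Folr1 4.96%. Its log2 fold change was 1.66 ± 0.23 and its slope 0.32 ± 0.05 (adjusted p = 0.0273, edgeR).

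Other secreted products were called as well. Coagulation factor V (F5) had a log2 fold change of 3.57 ± 0.41, Sostdc1, an antagonist of BMP and Wnt signals, 2.83 ± 0.36, and Wfdc2, a small secreted protein of the protease-inhibitor family, 2.49 ± 0.32. All 3 were called at 3 months as well, although F5 lost its 3-month call in 6 of the 10 fits that left out 1 library (adjusted p of 0.0517 to 0.219) and Wfdc2 in the fit without KI replicate 4. The gene 1500015O10Rik, which encodes augurin, had 2.98 ± 0.22 and the smallest p of the 53. Igf2, a growth factor of plexus, vessels and meninges, was 72.7 to 145 CPM in the high-Ttr set and 44.2 to 74.4 CPM in the low-Ttr set, so the sets overlapped (log2 fold change 0.85 ± 0.20, not called at either age). Sfrp1, a Wnt antagonist, also overlapped between the sets (0.06 ± 0.31).

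Ion and water transport held 14 tested members, of which 13 were above 0 and 7 called, with 8 called at 3 months. Slc4a5, a sodium bicarbonate cotransporter, was 14.4, 4.58, 15.3, 6.02 and 11.0 CPM in the high-Ttr set and 0.269, 1.27, 0.297, 0.225 and 0.565 CPM in the low-Ttr set. All high-Ttr libraries were more than 3 CPM above the low-Ttr libraries, and within the high-Ttr set the order was led by the same control replicates, 8 and 6, as for Ttr. Its log2 fold change was 4.20 ± 0.49 and its slope 0.89 ± 0.05 (adjusted p = 2.86e-05, edgeR); a gene in fixed proportion to Ttr would have a slope of 1. Aqp1, the water channel of the ventricular face, was 10.4, 3.59, 14.1, 4.26 and 6.87 CPM against 0.861, 1.37, 0.946, 1.07 and 0.802 CPM. The sets were separate, with a low level that differed little between low-Ttr libraries. Aqp1 had a log2 fold change of 2.81 ± 0.35 and a slope of 0.61 ± 0.07 (adjusted p = 0.00137, edgeR).

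The channels Kcnj13 (2.80 ± 0.30) and Clic6, a chloride intracellular channel family member (2.84 ± 0.36), the potassium channel subunit Kcne2 (3.65 ± 0.41), the cation channel Trpv4 (1.84 ± 0.24) and the membrane protein Tmem72 (4.24 ± 0.49) completed the called members, all of them also called at 3 months. Clic6 was not called at 10 months without control replicate 8 (adjusted p = 0.0558, edgeR). Transporters that neurons and glia also make in quantity were not called. Atp1b1, the beta subunit of the sodium pump, was 1451 to 1677 CPM in the 10 libraries (log2 fold change -0.06 ± 0.06), and Slc12a2, a chloride cotransporter, had 0.16 ± 0.11. Trpm3 and Slc4a2 had 0.85 ± 0.19 and 0.65 ± 0.16 and were not called at either age.

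Solute carriers held 14 tested members, all above 0, with 4 called at 10 months and 5 at 3 months. Steap1, a metalloreductase family member, was 3.63, 1.67, 2.97, 1.29 and 2.90 CPM in the high-Ttr set and 0.0359, 0.325, 0.223, 0.131 and 0.0547 CPM in the low-Ttr set. It was close to absent from the low-Ttr set, with its highest value there in control replicate 10. Its log2 fold change was 3.92 ± 0.45 and its slope 0.81 ± 0.06 (adjusted p = 1.00e-04, edgeR). Slc16a8, a lactate transporter (3.93 ± 0.44), Slc28a3, a nucleoside transporter (3.89 ± 0.45), and Slc2a12, a glucose transporter (1.70 ± 0.23), were the other 3, named after their values were seen. Of the most abundant members, some of which other brain cells also make, the organic anion and thyroxine transporter Slco1c1 had 0.33 ± 0.09, the copper importer Slc31a1 0.37 ± 0.10 and the organic anion transporter Slc22a8 0.03 ± 0.10, and none of these 3 was called at either age.

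Junction, keratin and matrix genes held 14 tested members, all above 0, with 7 called at 10 months and 5 at 3 months. Cldn2 was 15.8, 6.82, 13.1, 6.40 and 11.2 CPM in the high-Ttr set and 0.197, 1.36, 0.389, 0.431 and 0.310 CPM in the low-Ttr set. Its low-Ttr median was 3.47% of its high-Ttr median, and no library lay between 1.36 and 6.40 CPM. The log2 fold change was 4.22 ± 0.43 and the slope 0.88 ± 0.08 (adjusted p = 5.83e-04, edgeR). The epithelial keratins Krt18 (2.87 ± 0.31) and Krt8 (2.48 ± 0.41) were higher together, and Krt18 alone was called at 3 months (Krt8 slope 0.40 ± 0.07, adjusted p = 0.0686, edgeR; the difference between them was not tested). Calml4, a calmodulin-like protein of the brush border, had 2.33 ± 0.31. Ezr, Vat1l, Cab39l and Sulf1, the most abundant members, had values of 0.23 to 0.62 and were not called at either age.

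Of the called genes, 4 encode collagen chains. Col4a3, a type IV collagen chain, was 2.95, 1.62, 2.02, 1.49 and 2.44 CPM in the high-Ttr set and 0.556, 0.687, 0.501, 0.319 and 0.565 CPM in the low-Ttr set. Its partner chain Col4a4, the head-to-head neighbour on chromosome 1, was 2.65, 2.24, 3.40, 1.59 and 3.20 CPM against 0.825, 1.14, 0.742, 0.918 and 0.674 CPM. Both were separate between the sets and called at both ages, with log2 fold changes of 1.95 ± 0.24 and 1.55 ± 0.22. Col8a2 and Col9a3 had 1.43 ± 0.22 and 1.01 ± 0.17 and were also called at both ages. These collagens were named after their values were seen. The fibrillar collagen genes of the stromal list were not called: Col1a1 had 0.02 ± 0.21, Col1a2 -0.10 ± 0.18 and Col3a1 -0.46 ± 0.29.

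Receptors and transcription factors held 9 tested members, all above 0, with 5 called at 10 months and 6 at 3 months. Kl, klotho, the co-receptor of the hormone FGF23, was 83.0, 29.0, 67.5, 31.9 and 58.2 CPM in the high-Ttr set and 4.38, 9.20, 4.64, 6.99 and 4.08 CPM in the low-Ttr set. Its order within the high-Ttr set differed from that of Ttr at the top, where control replicate 6 led. The log2 fold change was 3.12 ± 0.36 and the slope 0.61 ± 0.06 (adjusted p = 5.83e-04, edgeR). Otx2 was 9.95, 4.09, 6.85, 4.75 and 6.20 CPM against 0.466, 1.46, 0.760, 0.431 and 0.710 CPM, again without overlap. Its log2 fold change was 2.97 ± 0.32, and those of the homeobox factors Lmx1a and Msx1 were 3.12 ± 0.48 and 1.06 ± 0.19, all 3 with a called slope at 3 months. The prolactin receptor Prlr had 2.41 ± 0.39 (adjusted p = 0.0440, edgeR), and its call was lost in 7 of the 10 fits that left out 1 library. It was called at 3 months too, but not without KI replicate 4 or without KI replicate 6. Ace, the angiotensin-converting enzyme, was 25.2 to 63.1 CPM against 15.8 to 21.9 CPM without passing the threshold (1.15 ± 0.22, adjusted p = 0.0755, edgeR). The serotonin receptor Htr2c, which cortical neurons also make, overlapped between the sets (0.27 ± 0.27).

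**Figure D3:**
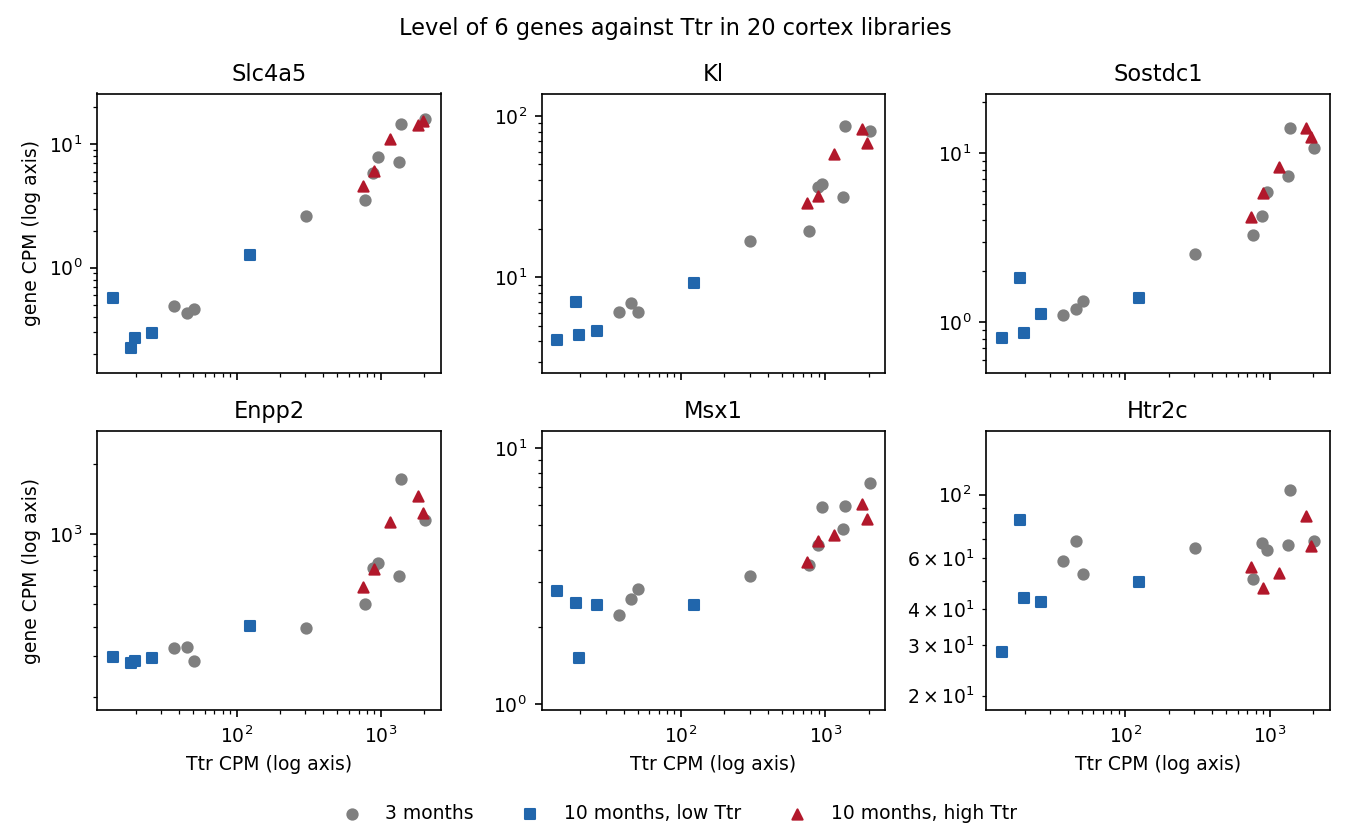
Level of 6 genes against Ttr (CPM, both axes logarithmic) in 20 libraries, with 3-month libraries as grey circles, 10-month low-Ttr libraries as blue squares and 10-month high-Ttr libraries as red triangles. Slc4a5, Kl and Sostdc1 climb with Ttr across both ages, Enpp2 and Msx1 climb less over a base level, and Htr2c shows little relation.

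Genes with a mean of at least 1 CPM over the 20 libraries were ranked by how like Ttr their pattern was. The measure was Pearson's r of log2 CPM after the mean of each of the 4 groups was removed. This ranking is a description that uses the 10-month libraries too. The first 10 were Kcne2 (0.985), 1500015O10Rik (0.984), Cldn2 (0.981), Slc4a5 (0.981), Clic6 (0.979), Steap1 (0.978), Folr1 (0.977), Otx2 (0.974), Tmem72 (0.973) and Kl (0.971). All 10 were members of the choroid plexus lists, which is no test because the lists were drawn up with earlier results of these data known. Prr32, a proline-rich protein, and Wdr86, a WD-repeat protein, were in no list and were among the 20 called genes of largest difference with a mean of at least 1 CPM (3.10 ± 0.38 and 2.32 ± 0.30), and both were called at 3 months. Per kilobase of transcript, the median level in the high-Ttr set was 949 CPM for Ttr, 324 for Enpp2, 14.1 for Kcnj13, 11.4 for Kl and 4.39 for Folr1.

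The 25 tested members of the ependymal and motile cilium list had 23 values above 0, a median of 0.36 and 0 called at 10 months, and 5 of them separated the sets, beside 0.831% of all genes tested. Their summed level was 97.4 to 135 CPM in the high-Ttr set and 90.1 to 95.1 CPM in the low-Ttr set, without overlap. At 3 months 24 of 25 slopes were above 0 and 2 were called: Pifo, which acts in ciliary disassembly (0.32, adjusted p = 0.00369, edgeR), and Dynlrb2, a dynein light chain (0.20, adjusted p = 0.0145, edgeR). Pifo was 2.83, 1.03, 2.06, 1.35 and 1.19 CPM against 0.431, 0.633, 0.834, 0.993 and 1.00 CPM, so its sets met at about 1 CPM. Of the 4 most abundant members, Ccdc39 had 0.09 ± 0.11 and Dnah5 0.00 ± 0.15, both genes of axonemal motility. The others were Dnah6 and Rsph4a. Dnah6 was 14.1, 5.38, 7.39, 4.34 and 11.4 CPM against 7.09, 2.96, 7.23, 1.93 and 4.24 CPM. Rsph4a had 505, 370, 377, 288 and 355 counts against 363, 321, 304, 416 and 241 counts. Both overlapped between the sets, with the highest value of each in control replicate 6. Outside the list, Drc7, a subunit of the axonemal dynein regulatory complex, was 10.7, 6.34, 11.6, 5.79 and 9.05 CPM against 1.44, 2.11, 1.63, 1.82 and 1.71 CPM. Gmnc, a geminin-family regulator of multiciliated cells, was 3.19, 1.99, 2.45, 2.30 and 3.11 CPM against 0.861, 0.904, 1.08, 1.33 and 1.11 CPM. Both separated the sets and were called at both ages, with log2 fold changes of 2.26 ± 0.20 and 1.36 ± 0.18 (named after their values were seen).

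Markers of tissues that lie next to the choroid plexus were not among the called genes, which were 0.269% of all genes tested at 10 months. Of 22 meningeal and stromal fibroblast genes, 5 were above 0 at 10 months, 0 were called at either age and the median was -0.08; Dcn, decorin, was 15.2 to 34.5 CPM in the high-Ttr set and 22.8 to 44.1 CPM in the low-Ttr set. Of 10 border macrophage genes 1 was above 0, and Mrc1, the mannose receptor, had -0.36 ± 0.28. The 4 tested genes of fenestrated endothelium included Plvap, the diaphragm protein of fenestrae, at -0.04 ± 0.21. Barrier endothelium had 8 of 10 genes above 0 and a median of 0.03. Hippocampal genes had 9 of 12 above 0 and a median of 0.14. Dsp, desmoplakin, which epithelia also make, was the 1 member that separated the sets (1.96, adjusted p = 0.0512, edgeR), beside 0.831% of all genes tested. Prox1, a marker of dentate granule cells, had 0.01 ± 0.09. Striatal genes had 11 of 13 above 0 and a median of 0.19, and Ppp1r1b, the dopamine-signalling protein DARPP-32, had 0.20 ± 0.17. Thalamic genes (4 of 9 above 0), subventricular neuroblast genes (4 of 10) and myelin genes (7 of 11) had medians of -0.01, -0.01 and 0.02. In every list named in this paragraph 0 genes were called at 10 months and 0 at 3 months. Over all genes tested, the shares called were 0.269% and 0.285%. With shares so small, 0 calls in lists this short do not set them apart from other genes. The 10-month directions did not all hold at 3 months. Slopes above 0 there numbered 20 of 22 for meningeal and stromal genes, 7 of 10 for border macrophages and 3 of 4 for fenestrated endothelium. They numbered 2 of 10 for barrier endothelium, 4 of 13 for striatal and 8 of 12 for hippocampal genes. For thalamic, neuroblast and myelin genes they were 7 of 11, 5 of 10 and 6 of 11. The summed striatal level was 386 to 625 CPM in the high-Ttr set and 301 to 583 CPM in the low-Ttr set, and the hippocampal sum 242 to 360 and 247 to 374 CPM, so both overlapped. KI replicate 6 alone held the low end of the striatal sum, at 301 CPM against 429 to 583 CPM in the other 4 low-Ttr libraries. Without it the striatal median was 0.07, with 8 of 13 above 0; without KI replicate 7 it was 0.03 (7 of 13) and without control replicate 8 it was 0.10 (10 of 13). At 3 months the summed thalamic level ran from 98.9 to 288 CPM, a spread not seen at 10 months (91.0 to 114), while the median slope of its genes on Ttr was 0.01.

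**Figure D4:**
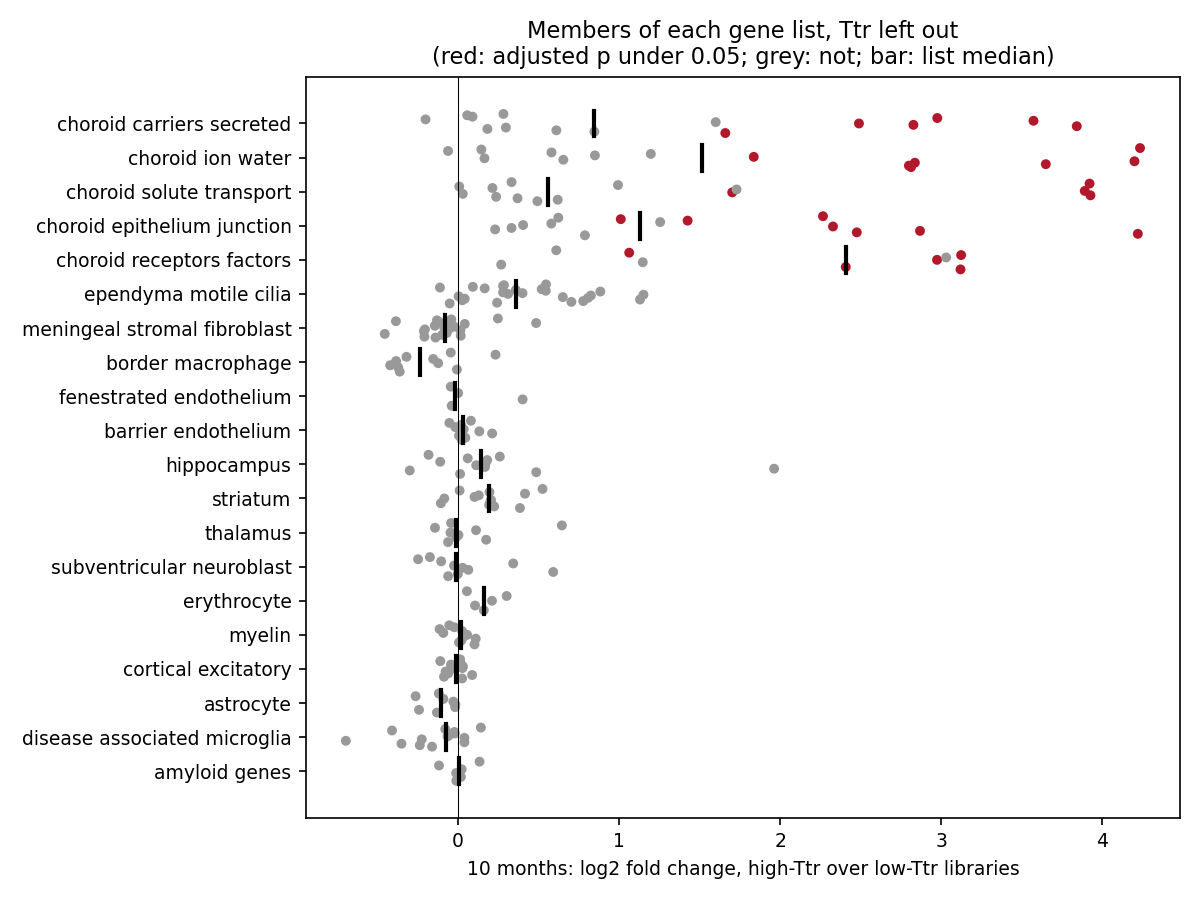
Log2 fold change at 10 months between the high-Ttr and low-Ttr sets for each tested member of 20 gene lists, Ttr left out, with called genes in red and the list median as a bar. The 29 red points all lie in the 5 choroid plexus lists, and the medians of the other lists lie between -0.24 and 0.36.

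The list medians were -0.02 for cortical excitatory neurons (6 of 12 above 0), -0.11 for astrocytes (0 of 8) and 0.16 for erythrocytes (5 of 5). In each 0 were called at either age, beside 0.269% of all genes at 10 months and 0.285% at 3 months. The 14 genes of disease-associated microglia had 3 values above 0, a median of -0.07 and 0 called. At 3 months the slopes above 0 numbered 2 of 12 for excitatory neurons, 4 of 8 for astrocytes, 5 of 5 for erythrocytes and 2 of 14 for these microglial genes. The 5 lower genes of smallest p were Rab32, Pmaip1, Trim30d, C1qb and Fcrls, none of which passed the threshold (adjusted p of 0.133 to 0.490, edgeR). C1qb, a complement subunit made by microglia, was 51.4, 63.2, 83.5, 88.8 and 68.9 CPM in the high-Ttr set and 106, 114, 89.3, 89.5 and 96.9 CPM in the low-Ttr set. The highest high-Ttr value lay just below the lowest low-Ttr value, and the 3-month slope of C1qb on Ttr was -0.02 ± 0.04. Rab32, a small GTPase of lysosome-related organelles, had -0.58 ± 0.13 and a slope of 0.04 ± 0.04, and Pmaip1, the apoptosis gene Noxa, -0.89 ± 0.22 and -0.06 ± 0.05. DESeq2 called Rab32 and Pmaip1 lower at 10 months.

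The sets hold unequal numbers of each genotype, so the genotype comparison at 10 months was made with and without the Ttr class in the model. With the class, 4 of 19727 genes differed between KI and control (0.0203%) and without it 7 of 19149 (0.0366%), at an adjusted p under 0.05 by edgeR, and all 4 were among the 7. With the class, Cfap54, a cilium protein gene (chromosome 10, 92775619 to 93081618), was lower in KI by 1.64 ± 0.14 on the log2 scale (adjusted p = 2.58e-04), and Tdg, the thymine DNA glycosylase gene (chromosome 10, 82629828 to 82650799), was higher in KI at 1.40 ± 0.16 (adjusted p = 0.00657). The other 2 were predicted genes, Gm9855 (-4.67 ± 0.26) and Gm15920 (-2.77 ± 0.15), named because they complete the count. In the annotation Tdg overlaps Glt8d2 and Gm15920 overlaps Rabgef1. Cfap54 was 58.4, 54.2, 44.9, 32.1 and 48.6 CPM in control replicates 6 to 10 and 14.7, 16.9, 14.3, 13.5 and 15.4 CPM in KI replicates 4, 5, 6, 3 and 7. Control replicate 9, at 32.1 CPM, lay between the genotypes, as it did for Tdg (13.5 CPM, against 6.58 to 7.74 in the other controls and 19.4 to 25.9 in KI), Gm9855 (2.98 CPM) and Gm15920 (12.6 CPM).

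The 3 genes called only without the class had nearly the same difference in both models. Insig1, a regulator of sterol synthesis, had 0.48 ± 0.07 without the class (adjusted p = 0.0289) and 0.47 ± 0.07 with it (adjusted p = 0.0557, edgeR). Hal, histidine ammonia-lyase, moved from an adjusted p of 0.0289 to 0.0665 (edgeR), as did 1190007I07Rik. Without KI replicate 5, the library with Xist, 10 genes were called with the class, and without KI replicate 4, 8 were. Abca7 itself (chromosome 10, 79996494 to 80015572) had -0.15 ± 0.13 (adjusted p = 0.960, edgeR) for genotype and 0.13 ± 0.13 between the Ttr sets. None of 20156 genes had a set difference that differed between the genotypes at an adjusted p under 0.05 (0%, with 281 at an unadjusted p under 0.05, edgeR; not fitted with DESeq2).

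The choroid plexus genes had other genotype values in each model. Their median difference between KI and control was -0.42 without the class (7 of 65 above 0), -0.17 with it (18 of 66) and 0.04 with log2 Ttr as a continuous term (38 of 66). The median of all genes was -0.01 without the class and -0.01 with it. None of the choroid plexus genes was called for genotype with the class. For the disease-associated microglia list the same medians were 0.40 and 0.40 (13 of 14 above 0 in both), and 0.38 with log2 Ttr as a continuous term. Tyrobp, the adaptor protein of microglial receptors, had 0.45 ± 0.10 with the class and 0.48 ± 0.11 without it, and neither passed the threshold.

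**Figure D5:**
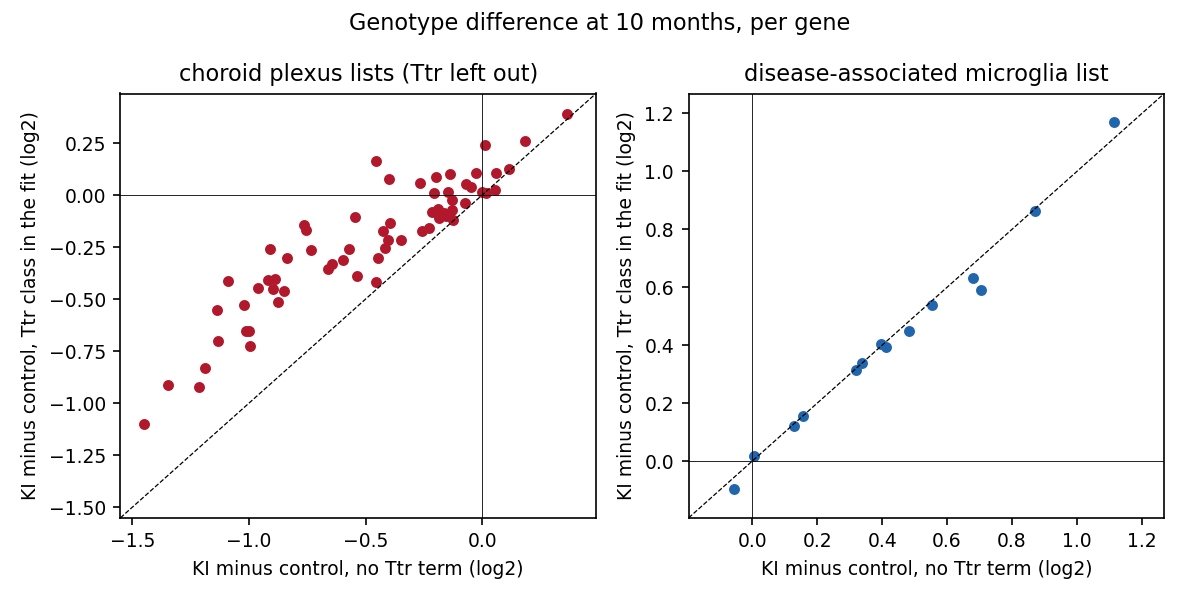
Difference between KI and control at 10 months (log2) for each gene, without a Ttr term on the horizontal axis and with the Ttr class in the model on the vertical axis, for the choroid plexus lists (left) and the disease-associated microglia list (right), with a dashed line of equality. Choroid plexus genes lie above the line on its negative side, with a median of -0.42 moving to -0.17, and the microglia genes lie along the line.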

How the data were processed

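The authors deposited raw read counts per gene for 20 libraries (43346 genes), and nothing was normalized before deposit as far as the values show. Per the submitters' processing notes the build was mm10. Which aligner, counter, strand setting and annotation were used is not given in the sources used here, so counts of genes that overlap another annotated gene (among those named 1500015O10Rik, Ace, Atp1b1, Bhmt, Calml4, Ccdc39, Clic6, Col4a3, Col9a3, Dsp, Ezr, F5, Gm15920, Htr2c, Igf2, Kcnj13, Mfrp, Plvap, Ppp1r1b, Prlr, Prox1, Slc16a8, Slc24a5, Slc2a12, Slc31a1, Slc4a2, Slco1a5, Sptlc3, Tdg, Trim30d, Trpm3, Ttr and Vat1l) are uncertain, as are those of the near-identical globin copies.

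Counts were filtered with filterByExpr, scaled by TMM (factors 0.972 to 1.03) and tested with edgeR 4.0.16 in R 4.3.3 by the quasi-likelihood test, with Benjamini-Hochberg adjustment over all genes tested. The 10-month models held genotype and Ttr class, and the 3-month model genotype and log2 Ttr CPM, with Ttr left out of the genes tested. A ± is the standard error of a log2 fold change or slope. Replicates of a group differed beyond counting error (chi-square per degree of freedom 10.7 to 120), so each library was counted once. The class, genotype and slope models were also run on simulated data, where small changes were mostly missed and some unchanged genes were called.

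The members of the sets and the gene lists were chosen with earlier results of these data known. The rule for naming genes took the 20 called genes of largest difference with a mean of at least 1 CPM (Gm and Rik symbols left out). It also took the 5 lower genes of smallest p, up to 4 most abundant members per list, the 10 genes most like Ttr and up to 10 genotype calls. Others were picked outside the rule, and only some are marked. Those not marked include Krt8, Trpv4, Lmx1a, Msx1, Col1a1, Col1a2, Col3a1, Pifo, Dynlrb2, Dsp, Mfrp, Pon1 and Bhmt. One gene that the rule would name is not reported here. Alternatives were RLE scaling, DESeq2 1.42.0, other low-count filters, all 20 libraries in 1 model, a replicate block, other Ttr terms, no genotype term, and leaving out each library.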

Additional observations from a re-analysis of the deposited data

Results flagged for a closer look

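In groups of 5 libraries, 20 genes were examined for a library whose gap to its nearest neighbour exceeded 0.71 of the group's range on the log2 scale. There were 44 groups of values, and in independent groups chance marks about 1 in 20. Here that rate does not apply, since Ttr cut the sets and the 20 genes were chosen by their difference between them. The marks are therefore a description. A pair of values was marked, both in control replicate 10 at 10 months among the low-Ttr libraries: Ttr at 123 CPM, where the other 4 ran from 13.9 to 26.1 CPM, and Tmem72 at 0.705 CPM, where the other 4 ran from 0.287 to 0.334 CPM. The same library was the highest of the low-Ttr set for Folr1, Slc4a5, Cldn2, Steap1, Kl and Otx2 without passing that limit.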

How the results depend on the processing

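The 53 calls between the Ttr sets at 10 months became 124 with DESeq2, 33 with a minimum mean of 1 CPM, 83 with all 20 libraries in 1 model, and 31 to 71 when 1 library was left out. The 55 slopes called at 3 months became 122 with DESeq2 and 33 to 84 when 1 library was left out. Of the genes called at 10 months in the main fit, 37 were also called at 3 months. That 10-month list was held fixed while the 3-month fit changed. The 37 became 27 to 44 when 1 of the 3-month libraries was left out. They became 47 with DESeq2 and 46 with all 20 libraries in 1 model. The 4 genotype calls with the Ttr class became 40 with DESeq2 (20 higher, 20 lower), 9 without a low-count filter, 8 with all 20 libraries, 7 with no Ttr term, and 4 to 10 when 1 library was left out. RLE scaling gave 53, 55 and 4. The interaction count was 0 in every setting run.

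A replicate block for the number in the titles, fitted over all 20 libraries, left 32 calls between the sets and 3 slopes at 3 months. All 3 slopes were of genes called at 10 months in the main fit. The block gave 0.18 for the genotype difference of Abca7, the 1 gene whose direction changed. Among 18 same-number pairs of libraries, r ran from -0.30 to 0.27 and was over 0.1 in 4. No pairs of different numbers were set beside them, so these values cannot decide whether libraries of the same number belong together.

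Leaving out 1 library, the Ttr difference in log2 CPM ran from -1.0 to 0.60 for genotype at 3 months, from -3.02 to -1.28 for genotype at 10 months, from -0.99 to 0.91 for age in control and from -2.87 to -1.27 for age in KI. The 10-month call of Ttr itself was lost in 8 of 10 such fits, and its log2 fold change stayed between 4.82 and 5.07 in those 8. The Ttr count chose the sets, so this call is not a test, and its loss says nothing about the split. The lowest Ttr count in the high-Ttr set was 32627 and the highest in the low-Ttr set was 6832.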

Other observations

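Among the 23 genes called at 10 months that were in no list are some best known from epithelia of other organs, described here as raw counts in the library order of the report because their levels were low, and chosen after their values were seen. Defb11, a defensin, had 29, 6, 18, 12 and 14 counts in the high-Ttr set and 0 counts in all 5 low-Ttr libraries. Its 3-month slope was not called (0.83, adjusted p = 0.270, edgeR). The conjugating enzyme Sult1c2 had 62, 16, 37, 11 and 50 counts against 1, 5, 4, 4 and 4, and its slope was called (0.85, adjusted p = 0.0220, edgeR). Slco1a5, an organic anion transporter, had 81, 14, 49, 26 and 60 counts against 5, 9, 2, 10 and 11 (slope 0.61, adjusted p = 0.0171, edgeR).

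Oca2, a melanosomal membrane protein, had 99, 29, 69, 66 and 140 counts in the high-Ttr set and 24, 23, 35, 15 and 11 in the low-Ttr set, a log2 fold change of 2.04 ± 0.37. Its raw counts overlapped between the sets (29 against 35), which separated only narrowly after scaling to CPM. Slc24a5, a melanosomal cation exchanger whose gene overlaps Myef2 in the annotation, had 108, 22, 73, 59 and 46 counts against 8, 16, 5, 14 and 7. Both slopes at 3 months were above 0 without passing the threshold (adjusted p of 0.0524 and 0.0740, edgeR). Sptlc3, a subunit of serine palmitoyltransferase, had 24, 13, 17, 29 and 36 counts against 3, 4, 5, 1 and 5, with the KI libraries of the high-Ttr set highest.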
